A study of Mus musculus with 12 samples.

Results

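The genes described here carry a cell from the end of G1 into DNA replication. They are 39 genes taken by symbol from a list of origin licensing, helicase, replication fork, nucleotide supply, chromatin assembly and G1/S control genes, among 38087 gene models in the table, and the rule itself uses no measured value. All 39 passed the filter on low counts that left 22384 models for testing. Whole sciatic nerve of mice was the source of RNA for 12 libraries, 3 in each of 4 groups. Control mice (Dhh-Cre-:Tfebflox/flox;Tfe3+) had no Cre recombinase and kept Tfe3, and the mice called dKO (Dhh-Cre+:Tfebflox/flox;Tfe3KO) lacked Tfe3 in every cell and carried a Cre driven by Dhh, which acts in the Schwann cell lineage. Tfeb was floxed in both genotypes, so by design Tfeb was lost in dKO mice in that lineage alone, while Tfe3 was missing from the other cells of the nerve too. Intact groups hold the nerve of the uninjured side, stripped of its epineurium, and injured groups (5DPI in the labels) hold the stump distal to a transection made 5 days earlier, without the millimetre next to the cut, for which no stripping is stated. The labels give neither the age nor the sex of the mice.

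In quiescent cells the retinoblastoma proteins hold E2F factors inactive on the promoters of S phase genes. Cyclin E with its kinase partner relieves that hold, E2F1 and its relatives switch on the genes for licensing, helicase, polymerases and nucleotide synthesis, and DNA is copied once from origins that were loaded with the Mcm helicase in G1. Schwann cells of an intact adult nerve rarely divide. After a nerve is cut, the Schwann cells distal to the cut shed myelin, turn into repair cells and proliferate in the stump, where macrophages and fibroblasts also gather and divide.

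The libraries held 15430999 to 35845371 counts. Tfeb and Tfe3, the targeted genes, were read in every library: Tfe3 stood at 55.0 to 67.6 CPM (library-scaled counts, with TMM factors) in control nerve at 5 days and at 49.5 to 53.8 CPM in dKO nerve, and neither gene passed the test between genotypes, which counts over a whole gene cannot turn into a check of a deleted exon. Control replicate 4 and all 3 dKO replicates at 5 days formed a library set of their own, with reads on 174 to 365 olfactory receptor models at equal depth against 48 to 81 in the other 8 libraries. The genotype comparison at 5 days is therefore also given against control replicate 4 alone and with a term for the set. Apart from that replicate the set and the genotype cannot be told apart. The term is estimated only from control replicate 4 against the other injured control libraries. With it, the genotype difference at 5 days rests on that control library, and the SE comes from the whole fit. In dKO nerve all intact libraries lie outside the set and all injured ones in it, so injury and set coincide there. Control replicate 1 at 5 days was female by its Xist and Y-linked counts and held 13530 CPM of red cell genes, while the other 11 libraries were male. The Schwann cell marker Sox10 stood at 486.5 to 643 CPM in intact nerve of both genotypes, and none of the 8 Schwann cell markers was at 0 in every library.

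In control nerve 37 of the 39 genes rose by 5 days after transection, none fell, and the median change was 2.27 on the log2 scale against 0.09 over all tested models. Of all tested models 24.4% rose and 22.4% fell. In dKO nerve 34 genes rose, 1 fell and the median was 1.42, beside 22.0% of all models that rose and 22.6% that fell, with a median of 0.05 over all. In intact nerve 0 of the 39 genes passed the test between the genotypes. At 5 days 34 were lower and 0 higher in dKO than in control nerve (median -0.99, all models -0.02), where 8.97% of all models were lower and 3.12% higher. With a term for the library set described above, 37 genes rose in control nerve and 31 in dKO nerve, beside 23.8% and 9.59% of all models, 0 fell in either, beside 21.1% and 9.62%, and Orc6, Cdc6 and Ccne2 no longer passed as risen in dKO nerve. The median injury change with that term was 2.495 in control and 1.84 in dKO nerve, in place of 2.27 and 1.42. Fewer genotype calls held at 5 days: with the term 8 genes passed as lower in dKO nerve, in place of 34. In that fit 1.65% of all models were lower, in place of 8.97%. These comparisons share libraries, since the injured control libraries enter both the injury change in control nerve and the genotype difference at 5 days. By GENCODE M21 (GRCm38, the mm10 build) Mcm5 lies on chromosome 8 from 75109569 to 75128439, Orc1 on chromosome 4 from 108579423 to 108614833, Cdc45 on chromosome 16 from 18780447 to 18811987, Pcna on chromosome 2 from 132249162 to 132253314, Rrm2 on chromosome 12 from 24708241 to 24714146 and E2f1 on chromosome 2 from 154559407 to 154569892. Counts are of reads over whole gene models, and 15 of the 39 genes share exon bases with a model on the opposite strand. Every adjusted p is from edgeR's quasi-likelihood test over all 22384 models, and every change or difference is on the log2 scale. Each SE was derived from that test, as the absolute change divided by the square root of its F statistic.

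**Figure D1:**
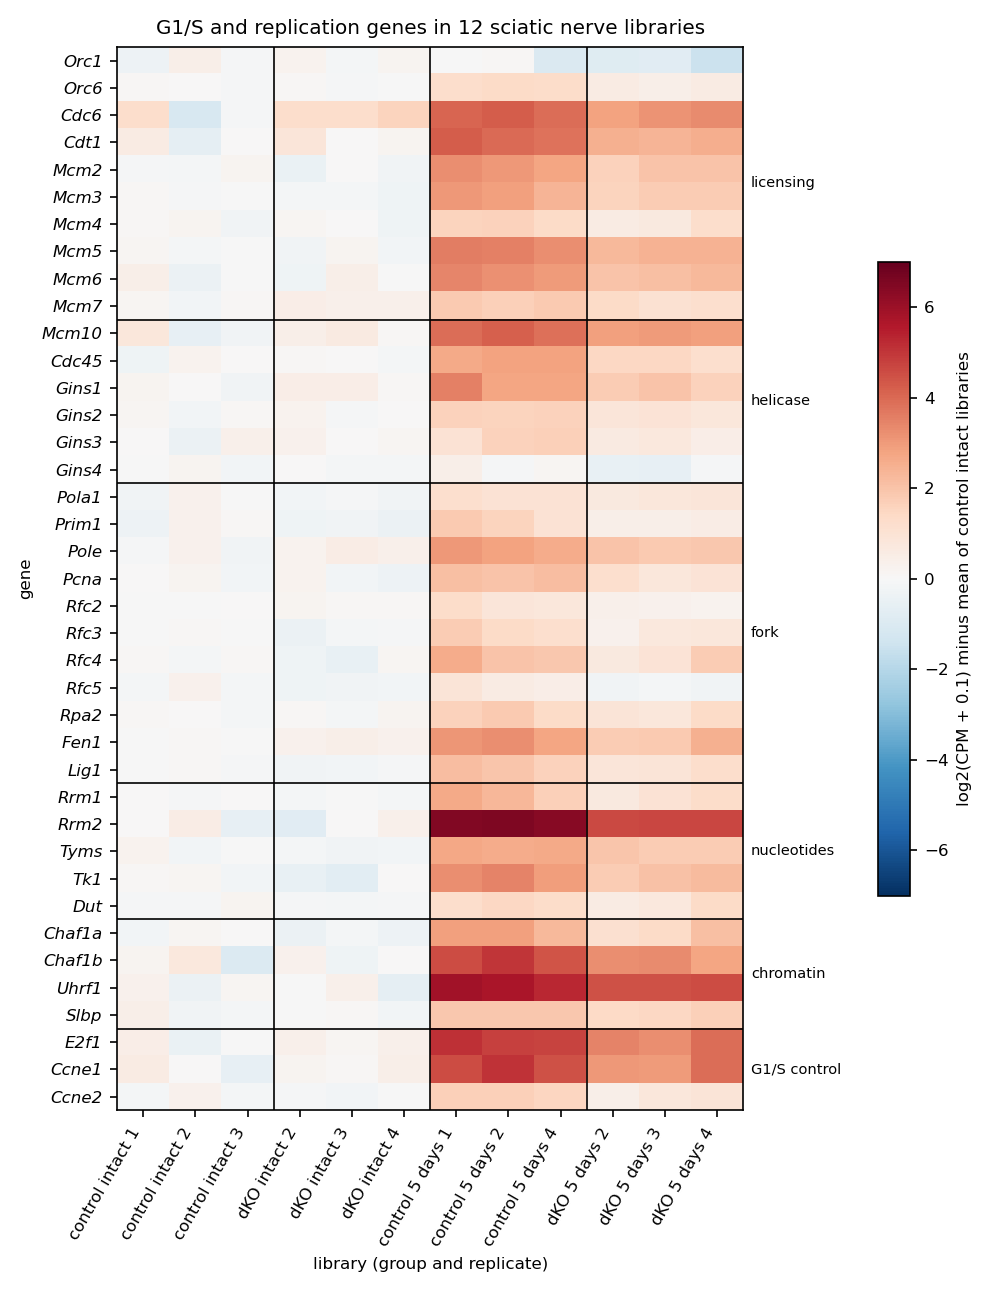
Heat map of the 39 genes (rows, ordered by role) in the 12 libraries (columns). Colour gives log2(CPM + 0.1) minus the mean of the control intact libraries: for most genes the intact libraries of both genotypes are near white, the injured control libraries are the darkest red and the injured dKO libraries lie between, unlike Orc1, Gins4 and Rfc5.

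The sum of the 39 genes was 435 to 474 CPM in uninjured control nerve and 427 to 451 CPM in uninjured dKO nerve. It reached 2205, 2034 and 1740 CPM in control nerve at 5 days (replicates 1, 2 and 4) and 929.9, 962 and 1106 CPM in dKO nerve (replicates 2, 3 and 4). The injured groups did not overlap in this sum, and each lay above both intact groups. Control replicate 4 had the lowest value of its group for 27 of the 39 genes and replicate 1 the highest for 22, and dKO replicate 4 was the highest of its group for 21. The dKO mean at 5 days was between 28.6% (Rrm2) and 81.4% (Pola1) of the control mean, with a median of 50.6%. In intact nerve the median was 94.6%.

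Licensing starts with the origin recognition complex, of which Orc1 and Orc6 are subunits, and with Cdc6 and Cdt1, which load the ring of Mcm2 to Mcm7 onto DNA. In control nerve 9 of these 10 genes rose, and in dKO nerve 9 rose and 1 fell. At 5 days 8 of 10 were lower in dKO nerve (median -1.03), and Orc1 and Cdc6 did not pass the test.

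Mcm5, a subunit of the helicase ring, stood at 7.72, 6.37 and 6.92 CPM in the uninjured control libraries and at 5.86, 7.93 and 6.08 CPM in the uninjured dKO libraries. After transection it reached 83.9, 82.6 and 68.02 CPM in transected control and 34.5, 38.8 and 37.7 CPM in transected dKO nerve. All injured libraries exceeded all intact ones, and the 3 dKO values lay below the 3 control values. The injury change was 3.48 (SE 0.15, adjusted p = 3.17e-10) in control and 2.48 (SE 0.14, adjusted p = 1.1e-08) in dKO nerve. The genotype difference at 5 days was -1.08 (SE 0.14, adjusted p = 0.00014). Mcm3 moved the same way, from 13.1, 11.4 and 11.98 CPM in uninjured control nerve and 10.9, 11.2 and 9.81 CPM in uninjured dKO nerve to 99.9, 89.4 and 63.01 CPM in transected control and 36.1, 42.4 and 42 CPM in transected dKO nerve. Its control replicate 4 lay well under the other control libraries and still above every dKO library. The genotype difference of Mcm3 was -1.07 (SE 0.15, adjusted p = 0.000361), after an injury change of 2.79 (SE 0.16, adjusted p = 4.81e-09) in control nerve and 1.91 (SE 0.16, adjusted p = 2.55e-07) in dKO nerve.

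Mcm7, another subunit of the ring, started from a higher level in the dKO libraries: it stood at 14.9, 11.99 and 14.6 CPM in uninjured control nerve and 18.7, 17.5 and 17.6 CPM in uninjured dKO nerve, with no overlap and a difference of 0.37 that did not pass (adjusted p = 0.85). After transection it reached 48.9, 44.02 and 49.5 CPM in transected control and 34.7, 29.1 and 31.6 CPM in transected dKO nerve, so the order of the genotypes was the opposite of that in intact nerve. The injury change was 1.78 (SE 0.12, adjusted p = 3.57e-08) in control nerve and 0.83 (SE 0.12, adjusted p = 7.72e-05) in dKO nerve, and the genotype difference at 5 days was -0.58 (SE 0.12, adjusted p = 0.00607). The other ring subunits rose by 3.04 (Mcm2), 1.52 (Mcm4) and 3.18 (Mcm6) in control nerve and by 2.12, 0.88 and 2.09 in dKO nerve, and at 5 days differed by -1.14, -0.66 and -1.07 between the genotypes, each past the threshold. The 6 proteins stand in the ring in equal number. Their RNA levels per kilobase of exon in injured control nerve were 7.72 CPM per kb (Mcm2), 10.7 (Mcm7) and 15.5 (Mcm4). Those of Mcm5, Mcm6 and Mcm3 were 19.6, 21.6 and 22.4 CPM per kb. In dKO nerve these levels ran from 3.50 CPM per kb (Mcm2) to 10.7 (Mcm3). The exon length is the union of all annotated exons of a gene, 6956 bases for Mcm2 and 4426 for Mcm7, and the order depends on it. Without division by length, the control mean at 5 days was 53.7 CPM for Mcm2 and 47.5 CPM for Mcm7.

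Cdt1 had the largest genotype difference of the licensing genes. It was low in intact nerve, at 3.18, 1.32 and 2.14 CPM in uninjured control and 3.87, 2.17 and 2.38 CPM in uninjured dKO libraries, and later reached 40.8, 34.4 and 30.1 CPM in transected control and 12.3, 11.3 and 12.8 CPM in transected dKO nerve. Every control value at 5 days was more than 2 times every dKO value. The change was 3.98 (SE 0.29, adjusted p = 6.14e-08) in control nerve and 2.12 (SE 0.28, adjusted p = 2.56e-05) in dKO nerve, and the genotype difference at 5 days was -1.53 (SE 0.26, adjusted p = 0.00151). Cdc6 stood at 12.7, 14.6 and 11.2 CPM in transected control and 5.25, 6.72 and 7.45 CPM in transected dKO nerve, and although these did not overlap its difference of -0.99 had an SE of 0.39 and did not pass (adjusted p = 0.114).

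The 2 subunits of the origin recognition complex differed from each other. Orc6 stood at 15.2, 14.8 and 13.6 CPM in uninjured control and 15.5, 13.8 and 13.98 CPM in uninjured dKO nerve, and at 34.1, 36.2 and 35.3 CPM in transected control and 21.8, 18.9 and 21.6 CPM in transected dKO nerve. The injured control libraries were tightly grouped and far above the dKO libraries, and the change was 1.28 (SE 0.12, adjusted p = 7.46e-07) in control and 0.52 (SE 0.12, adjusted p = 0.00268) in dKO nerve, with a genotype difference at 5 days of -0.76 (SE 0.12, adjusted p = 0.000852). Orc1, the largest subunit, was the only member with a negative change in control nerve. It stood at 7.54, 12.9 and 9.21 CPM in uninjured control and 11.5, 8.84 and 11.2 CPM in uninjured dKO nerve, and at 9.33, 10.3 and 4.76 CPM in transected control and 5.38, 5.45 and 3.35 CPM in transected dKO nerve. Control replicate 4 lay among the dKO libraries for Orc1, so the injured groups overlapped. In control nerve the change of Orc1 was -0.28 (SE 0.29, adjusted p = 0.471) and did not pass. In dKO nerve Orc1 fell, at -1.14 (SE 0.30, adjusted p = 0.00654), and with the library set term that value was -0.10 (adjusted p = 0.909). An antisense transcript model shares 10.8% of the exon bases of Orc1. With the library set term the genotype difference at 5 days of 5 licensing genes no longer passed: it was -1.31 for Cdt1 (adjusted p = 0.0787), -0.90 for Mcm2 (adjusted p = 0.0525), -0.50 for Mcm4 (adjusted p = 0.455), -0.82 for Mcm6 (adjusted p = 0.176) and -0.64 for Mcm7 (adjusted p = 0.0659). Those that passed stood at -0.77 for Orc6 (adjusted p = 0.0239), -0.65 for Mcm3 (adjusted p = 0.0367) and -0.88 for Mcm5 (adjusted p = 0.0156).

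Promoters of licensing genes are shown because several of them share a short E2F word although Orc1 did not rise with the others. RefSeq start sites (GRCm38.p6) gave a window of 250 bases before to 50 after the start for 32 of the 39 genes; Ccne2, Gins1, Gins2, Gins4, Mcm4, Pole and Rfc2 had no entry. The words searched on both strands were TTTCCCGC, TTTCGCGC, TTTGCCGC and TTTGGCGC. Each line gives the 180 bases before the start, in the direction of the gene, with E2F words in capitals, for Mcm5 (chr8:75109329-75109508, plus strand), Mcm6 (chr1:128359706-128359885, minus strand), Mcm7 (chr5:138171884-138172063, minus strand), Orc1 (chr4:108579274-108579453, plus strand) and Rrm2 (chr12:24708074-24708253, plus strand), the last shown because it had the largest injury change and holds none of the words in its window.
Mcm5: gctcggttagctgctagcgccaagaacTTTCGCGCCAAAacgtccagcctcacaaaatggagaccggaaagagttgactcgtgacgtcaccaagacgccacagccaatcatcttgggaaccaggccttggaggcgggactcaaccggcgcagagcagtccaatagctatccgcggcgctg
Mcm6: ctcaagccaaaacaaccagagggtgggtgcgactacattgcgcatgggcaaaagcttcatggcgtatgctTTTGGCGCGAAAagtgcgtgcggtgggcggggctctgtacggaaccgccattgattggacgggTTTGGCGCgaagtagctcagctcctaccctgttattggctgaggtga
Mcm7: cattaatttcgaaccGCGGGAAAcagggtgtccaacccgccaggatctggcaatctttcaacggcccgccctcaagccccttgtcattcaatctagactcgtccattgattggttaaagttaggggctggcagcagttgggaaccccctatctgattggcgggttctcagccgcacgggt
Orc1: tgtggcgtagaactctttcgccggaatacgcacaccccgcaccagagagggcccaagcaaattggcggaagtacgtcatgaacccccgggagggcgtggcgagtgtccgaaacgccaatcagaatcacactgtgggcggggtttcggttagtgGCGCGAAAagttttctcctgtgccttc
Rrm2: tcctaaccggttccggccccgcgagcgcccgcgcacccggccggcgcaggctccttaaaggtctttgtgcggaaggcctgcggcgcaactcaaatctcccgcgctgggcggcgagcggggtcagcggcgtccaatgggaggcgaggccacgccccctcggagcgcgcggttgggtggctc
An E2F word lay in the window of 12 of the 32 genes (37.5%), beside 704 of 27025 genes (2.6%) in the whole table. The 12 genes were Orc1, Cdc6, Cdt1, Mcm3, Mcm5, Mcm6 and Mcm7 among the licensing genes, Gins3 of the helicase, Pola1, Rfc3 and Lig1 of the fork, and Uhrf1. They held 18 words between 185 bases before and 39 bases after the start, with a median 44 bases before it, and 5 genes held 2 or more. In Mcm5 and Mcm6 a word on each strand overlapped in a single run of capitals. With only the 250 bases before the start the shares were 28.1% and 2.16%. The CCAAT box (CCAAT, both strands), which binds NF-Y, lay in 62.5% of the member windows and 41.1% of all, and 1 E2F word overlapped a CCAAT. The E-box CACGTG, which reads the same on both strands and is a core of the sites bound by TFEB and TFE3, lay in 4 of the 32 windows (12.5%), those of Fen1, Lig1, Tyms and Chaf1a, beside 8.09% of all genes. These are matches of letters, not measured binding, and these shares were not tested.

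**Figure D2:**
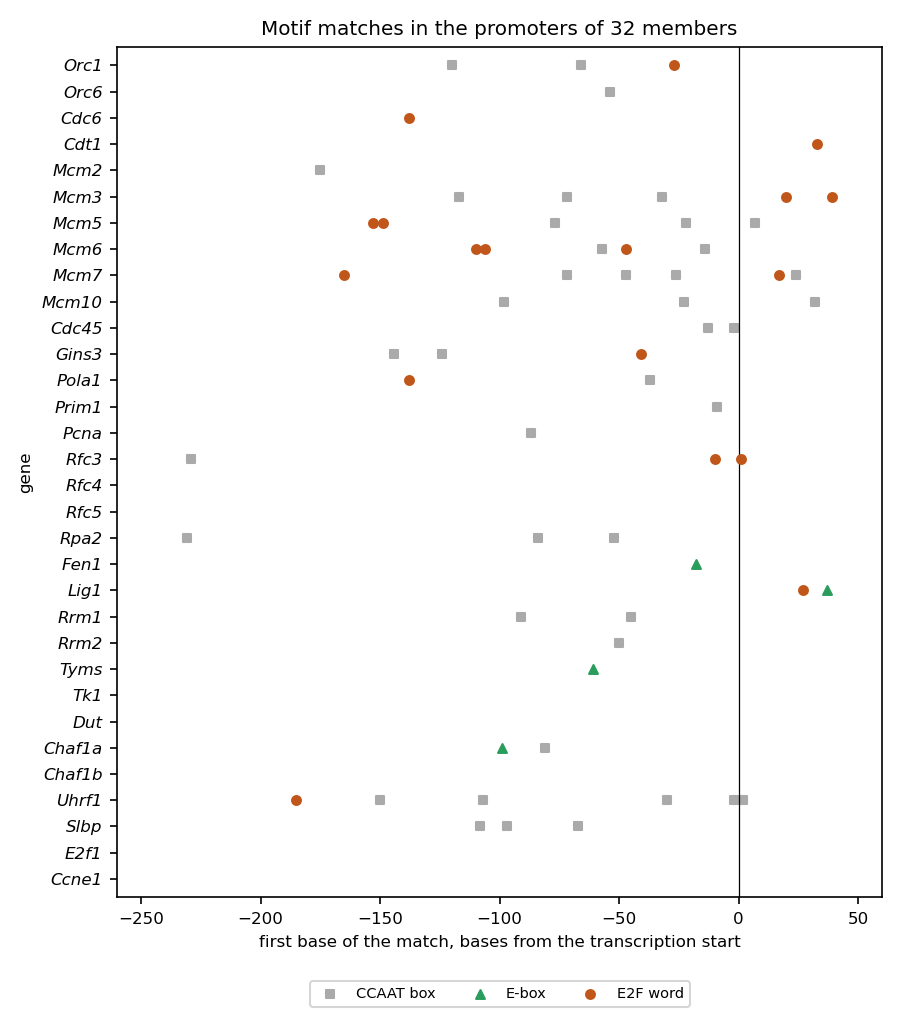
Positions of motif matches in the RefSeq promoters of 32 genes. The horizontal axis gives the first base of each match in bases from the transcription start (negative, before it), with E2F words as circles, CCAAT boxes as squares and E-boxes as triangles; the 18 E2F words lie in 12 genes between -185 and 39.

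Helicase activation adds Cdc45 and the GINS complex (Gins1 to Gins4) to the Mcm ring, with Mcm10 as a further initiation factor. In control nerve 5 of these 6 genes rose and in dKO nerve 4 did, and all 6 were lower in dKO nerve at 5 days (median -0.96).

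Cdc45 had the smallest p of this group for the genotype difference. It stood at 4.94, 7.23 and 6.22 CPM in uninjured control and 6.51, 6.28 and 5.40 CPM in uninjured dKO nerve, and at 38.6, 42.6 and 42.8 CPM in transected control and 16.6, 16.9 and 13.6 CPM in transected dKO nerve. Control replicate 4, the library that shares a set with the dKO libraries, was the highest of the 3 controls here. The change was 2.75 (SE 0.17, adjusted p = 8.8e-09) in control and 1.38 (SE 0.16, adjusted p = 1.04e-05) in dKO nerve, and the genotype difference at 5 days was -1.40 (SE 0.16, adjusted p = 6.56e-05), or -1.44 with the library set term (adjusted p = 0.00281). Gins1 stood at 3.18, 2.85 and 2.35 CPM in uninjured control, 3.87, 3.81 and 2.95 CPM in uninjured dKO, 32.5, 19.4 and 19.7 CPM in transected control and 9.85, 11.2 and 8.72 CPM in transected dKO nerve. Its replicate 1 stood apart above the other injured control libraries, both of which exceeded every dKO library. The genotype difference of Gins1 was -1.26 (SE 0.22, adjusted p = 0.00212), after an injury change of 3.09 (SE 0.24, adjusted p = 1.16e-07) in control and 1.49 (SE 0.23, adjusted p = 0.000125) in dKO nerve.

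Gins2 stood at 24.4, 19.1 and 22.9 CPM in uninjured control, 26.1, 20.6 and 22.1 CPM in uninjured dKO, 66.8, 63.99 and 66.9 CPM in transected control and 39.5, 42.03 and 38.9 CPM in transected dKO nerve. Both injured groups were tight and did not overlap, with a genotype difference of -0.71 (SE 0.12, adjusted p = 0.0013) and injury changes of 1.57 (SE 0.12, adjusted p = 9.51e-08) in control and 0.81 (SE 0.12, adjusted p = 8.13e-05) in dKO nerve. Of the exon bases of Gins2 67.3% are shared with Gse1 on the opposite strand, and the strand of the counts is not given in the sources used here. Gins4 was already high in intact nerve, at 26.7 CPM per kb in control, the highest level per kb of the 39 genes there, and did not pass in either injury comparison. It stood at 46.7, 33.5 and 39.6 CPM in transected control and 25.1, 24.2 and 34.1 CPM in transected dKO nerve, values that overlapped, with a genotype difference of -0.53 (SE 0.16, adjusted p = 0.0425). Gins3 rose by 1.44 in control nerve (adjusted p = 0.00024) and had a change of 0.47 in dKO nerve that did not pass (adjusted p = 0.136), so the 4 subunits of 1 complex had injury changes of 0.15 to 3.09 in control nerve. Mcm10 went from 1.54, 0.537 and 0.703 CPM in uninjured control nerve to 14.2, 16.7 and 13.6 CPM in transected control and 6.86, 7.39 and 6.82 CPM in transected dKO nerve, a genotype difference of -1.08 (SE 0.29, adjusted p = 0.0245). The set term ended the genotype call of 4 helicase genes, whose differences were then -0.98 for Gins1 (adjusted p = 0.124), -1.04 for Gins3 (adjusted p = 0.147), -0.51 for Gins4 (adjusted p = 0.366) and -0.95 for Mcm10 (adjusted p = 0.329), and Gins2 passed at -0.74 (adjusted p = 0.032).

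**Figure D3:**
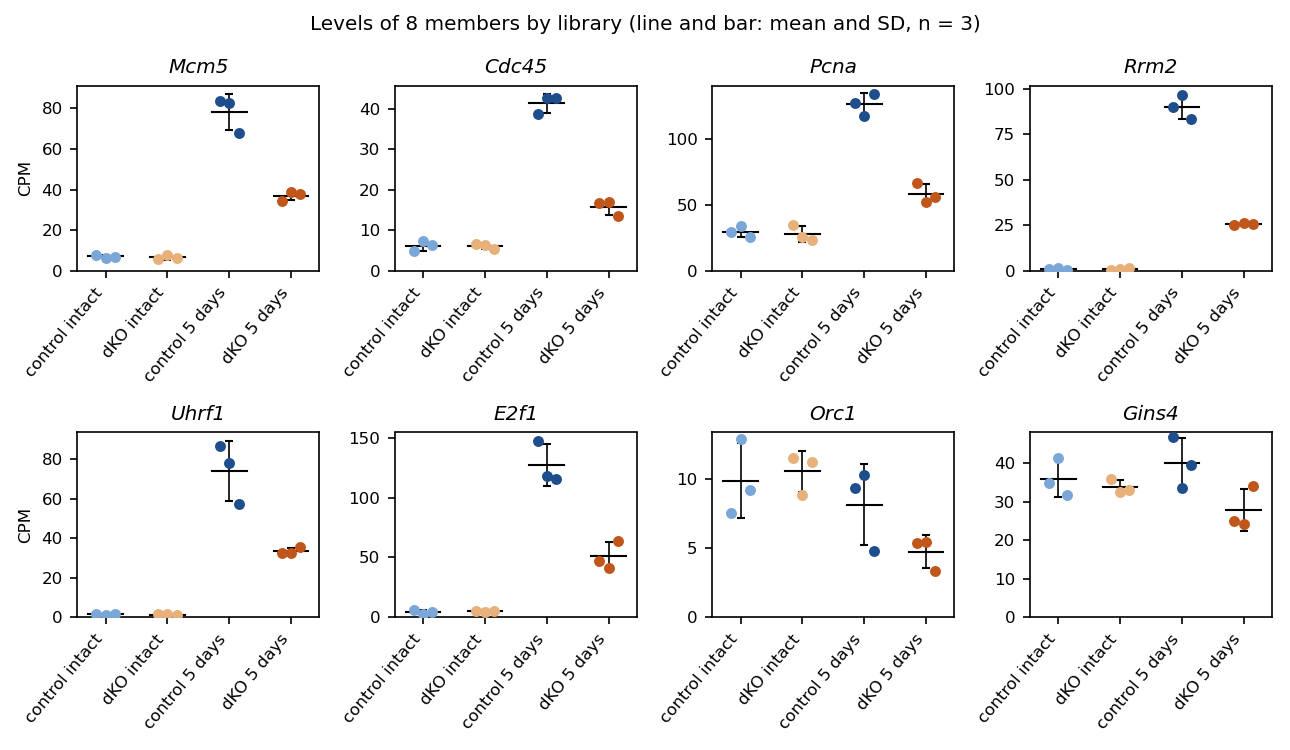
CPM of 8 genes in every library, by group (points, 3 libraries each), with the mean as a line and the SD as a bar, on linear axes from 0. Mcm5, Cdc45, Pcna, Rrm2, Uhrf1 and E2f1 show injured control above injured dKO libraries with no overlap, while for Orc1 and Gins4 the injured groups overlap and neither passed as higher than in intact nerve.

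At the fork, primase (Prim1) and polymerase alpha (Pola1) start each strand, polymerase epsilon (Pole) extends the leading strand, the clamp Pcna is loaded by the Rfc complex, Rpa2 is part of the protein that coats single strands, and Fen1 and Lig1 trim and join the lagging strand pieces. All 11 of these genes rose in control nerve and 9 rose in dKO nerve, where Rfc2 and Rfc5 did not pass. At 5 days 10 of 11 were lower in dKO nerve (median -0.94), and Pola1 did not pass.

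Pcna, the sliding clamp, stood at 29.5, 33.6 and 25.5 CPM in uninjured control and 34.8, 25.3 and 22.9 CPM in uninjured dKO nerve, and at 127, 118 and 134 CPM in transected control and 66.3, 51.9 and 56.2 CPM in transected dKO nerve. The highest control value was replicate 4, and the groups were far apart. The change of Pcna was 2.10 (SE 0.16, adjusted p = 7.36e-08) in control and 1.07 (SE 0.15, adjusted p = 6.18e-05) in dKO nerve, and the genotype difference at 5 days was -1.12 (SE 0.15, adjusted p = 0.000282). With the set term the difference was -1.20 (adjusted p = 0.00812). A pseudogene, Pcna-ps2, was counted at 193, 149 and 144 CPM in transected control and 68.8, 66.6 and 84.3 CPM in transected dKO nerve, a difference of -1.15 (SE 0.14, adjusted p = 0.000152), and reads of near-identical sequence may be split between both models. Per kilobase Pcna had the highest level of the 39 genes in injured control nerve, 52.6 CPM per kb, and in injured dKO nerve, 24.2 CPM per kb.

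Pole stood at 3.58, 4.67 and 3.16 CPM in uninjured control, 4.55, 5.46 and 4.79 CPM in uninjured dKO, 31.5, 26.9 and 23.4 CPM in transected control and 15.04, 13.4 and 14.04 CPM in transected dKO nerve. The intact dKO values lay in the upper range of the control ones or above, and the injured dKO values lay below every injured control value. The genotype difference of Pole at 5 days was -0.95 (SE 0.17, adjusted p = 0.00273), with injury changes of 2.85 (SE 0.19, adjusted p = 2.06e-08) in control and 1.52 (SE 0.18, adjusted p = 1.09e-05) in dKO nerve. Pola1, which makes the primer's DNA part, was at the other end: it stood at 31.1, 27.8 and 28.5 CPM in transected control and 22.1, 24.3 and 24.8 CPM in transected dKO nerve, which did not overlap, with changes of 1.05 and 0.94 in control and dKO nerve and a genotype difference of -0.30 (SE 0.14, adjusted p = 0.204). Prim1 rose by 1.48 in control and 0.80 in dKO nerve, and its genotype difference was -1.04 (SE 0.20, adjusted p = 0.00444).

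Fen1, the flap endonuclease, stood at 5.01, 5.42 and 5.09 CPM in uninjured control, 6.51, 6.98 and 6.28 CPM in uninjured dKO, 44.96, 49.7 and 35.04 CPM in transected control and 18, 18.4 and 29.3 CPM in transected dKO nerve. In intact nerve the dKO values were higher without overlap, but the difference of 0.35 did not pass (adjusted p = 0.878). At 5 days they were lower without overlap. The genotype difference of Fen1 at 5 days was -0.99 (SE 0.19, adjusted p = 0.00337), and its changes with injury were 3.06 (SE 0.20, adjusted p = 2.08e-08) in control and 1.73 (SE 0.20, adjusted p = 6.37e-06) in dKO nerve. An antisense model covers 78.8% of its exon bases. Lig1, the ligase, stood at 23.7, 25.5 and 22.7 CPM in uninjured control, 20.4, 20.8 and 22.7 CPM in uninjured dKO, 108, 90.9 and 74.5 CPM in transected control and 42.8, 44.7 and 55.9 CPM in transected dKO nerve. Its injured groups did not overlap, and the genotype difference was -0.94 (SE 0.14, adjusted p = 0.000562) after changes of 1.93 (SE 0.14, adjusted p = 6.45e-08) in control and 1.16 (SE 0.14, adjusted p = 1.32e-05) in dKO nerve.

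Of the fork genes, the clamp loader subunits Rfc5 and Rfc2 had the smallest rises in control nerve. On the opposite strand Wsb2 shares 10.7% of the exon bases of Rfc5, and Lat2 shares 15.1% of those of Rfc2. Rfc2 stood at 33.6, 33.4 and 35.5 CPM in uninjured control, 39.1, 35.98 and 35.5 CPM in uninjured dKO, 81.8, 62.3 and 58.4 CPM in transected control and 43.8, 41.9 and 41.1 CPM in transected dKO nerve. All injured dKO values were above the intact ones by a few CPM and below every injured control value, with a change of 0.98 (SE 0.12, adjusted p = 1.04e-05) in control nerve, a change of 0.20 (SE 0.12, adjusted p = 0.196) in dKO nerve and a genotype difference at 5 days of -0.68 (SE 0.12, adjusted p = 0.00211). Rfc5 stood at 46.3, 62.2 and 47.1 CPM in uninjured control and 94.4, 76.3 and 69.7 CPM in transected control nerve, and at 42.5, 43.8 and 45.1 CPM in uninjured dKO and 43.5, 47.1 and 43.2 CPM in transected dKO nerve. It rose in control nerve by 0.63 (adjusted p = 0.00119), and in dKO nerve its change was 0.03 (SE 0.13, adjusted p = 0.89). Rfc3 and Rfc4 rose by 1.46 and 2.21 in control nerve and by 0.83 and 1.42 in dKO nerve, with genotype differences of -0.84 and -0.997 at 5 days that passed. Rpa2 rose by 1.61 in control and 0.98 in dKO nerve, with a genotype difference of -0.59 (SE 0.17, adjusted p = 0.0323). Apart from Pcna, 9 fork genes were no longer called lower in dKO nerve with the set term, at -0.54 for Prim1 (adjusted p = 0.358), -0.73 for Pole (adjusted p = 0.15), -0.47 for Rfc2 (adjusted p = 0.16), -0.55 for Rfc3 (adjusted p = 0.375), -0.68 for Rfc4 (adjusted p = 0.554), -0.65 for Rfc5 (adjusted p = 0.0782), -0.32 for Rpa2 (adjusted p = 0.646), -0.68 for Fen1 (adjusted p = 0.21) and -0.64 for Lig1 (adjusted p = 0.0646).

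**Figure D4:**
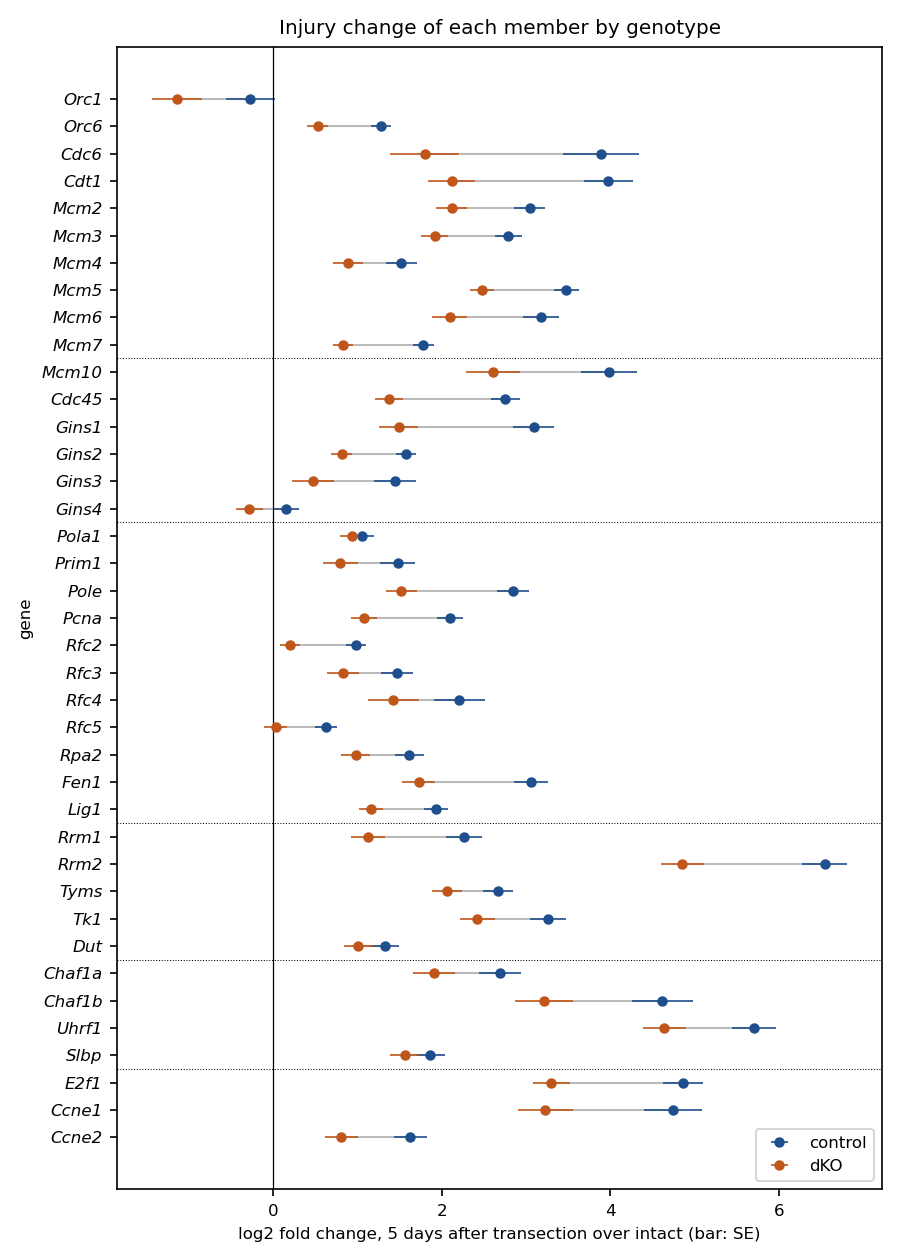
Change with injury of each gene on the log2 scale (horizontal axis), in control (blue) and dKO nerve (orange), with the SE as bars and dotted lines between role groups. The dKO point lies to the left of the control point for every gene; Orc1 lies left of 0 in both genotypes, and Rrm2 is farthest right at 6.55 in control and 4.86 in dKO nerve.

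Nucleotide supply genes make the deoxynucleotides that polymerases use. All 5 rose in both genotypes, and 4 were lower in dKO nerve at 5 days (median -1.22), with Dut not passing.

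Rrm2, the regulated small subunit of ribonucleotide reductase, stood at 0.951, 1.36 and 0.597 CPM in uninjured control and 0.498, 0.945 and 1.19 CPM in uninjured dKO nerve, and at 89.9, 96.6 and 83.5 CPM in transected control and 25.2, 26.2 and 25.9 CPM in transected dKO nerve. Among the 39 genes it had the largest injury change in each genotype, 6.55 (SE 0.27, adjusted p = 1.87e-10) in control and 4.86 (SE 0.25, adjusted p = 4.42e-09) in dKO nerve, and the largest genotype difference at 5 days, -1.80 (SE 0.20, adjusted p = 6.04e-05). The dKO mean at 5 days was 28.6% of the control mean, and with the set term the difference was -1.70 (adjusted p = 0.00468). Rrm1, the large subunit, stood at 159, 124 and 79.4 CPM in transected control and 40.8, 50.9 and 61.2 CPM in transected dKO nerve, with control replicate 4 nearer to the dKO libraries than to replicate 1. Its injury change was 2.27 in control and 1.12 in dKO nerve and its genotype difference was -1.25 (SE 0.20, adjusted p = 0.0015).

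Tk1, the salvage enzyme thymidine kinase, stood at 6.22, 6.49 and 5.13 CPM in uninjured control, 4.10, 3.57 and 5.97 CPM in uninjured dKO, 56.7, 67.8 and 46.3 CPM in transected control and 20.3, 24.6 and 28.2 CPM in transected dKO nerve. The injured groups did not overlap, and the genotype difference was -1.22 (SE 0.20, adjusted p = 0.00105) after changes of 3.26 (SE 0.21, adjusted p = 1.95e-08) in control and 2.42 (SE 0.21, adjusted p = 5.05e-07) in dKO nerve. Tyms, which makes thymidylate, stood at 3.84, 2.85 and 3.20 CPM in uninjured control, 2.95, 2.71 and 2.88 CPM in uninjured dKO, 21.8, 20 and 21.03 CPM in transected control and 12.9, 11.3 and 11.5 CPM in transected dKO nerve. Its values were tight in every group, with a genotype difference of -0.81 (SE 0.16, adjusted p = 0.00454) and changes of 2.67 (SE 0.17, adjusted p = 1.79e-08) in control and 2.06 (SE 0.17, adjusted p = 3.31e-07) in dKO nerve. Dut, which removes dUTP, stood at 42.4, 48.5 and 42.7 CPM in transected control and 26, 29.1 and 44.4 CPM in transected dKO nerve. Here dKO replicate 4 lay inside the control range, and the difference was -0.43 (SE 0.17, adjusted p = 0.121). The differences of Tk1, Tyms and Rrm1 did not pass with the set term, at -0.93 for Tk1 (adjusted p = 0.0908), -0.82 for Tyms (adjusted p = 0.0803) and -0.64 for Rrm1 (adjusted p = 0.126).

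Chromatin assembly behind the fork needs the CAF-1 chaperone (Chaf1a and Chaf1b), Uhrf1, which reads half-methylated DNA and brings in the maintenance methyltransferase, and Slbp, which binds histone mRNA. All 4 rose in both genotypes, and 3 were lower in dKO nerve at 5 days (median -1.13).

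Uhrf1 stood at 1.68, 0.992 and 1.55 CPM in uninjured control and 1.34, 1.80 and 0.849 CPM in uninjured dKO nerve, and at 86.6, 78.2 and 57.1 CPM in transected control and 32.5, 32.3 and 35.5 CPM in transected dKO nerve. From near 0 it reached a level well above the intact range in both genotypes, and its change of 5.70 (SE 0.26, adjusted p = 6.45e-10) in control nerve was second to that of Rrm2 among the members. In dKO nerve it changed by 4.64 (SE 0.25, adjusted p = 6.23e-09), and the genotype difference at 5 days was -1.15 (SE 0.20, adjusted p = 0.00234). Chaf1b stood at 1.46, 2.15 and 0.597 CPM in uninjured control, 1.57, 0.976 and 1.26 CPM in uninjured dKO, 31.7, 42.4 and 28.6 CPM in transected control and 12.8, 13.2 and 9.07 CPM in transected dKO nerve. Every injured control value was more than 2 times every injured dKO value, and the genotype difference was -1.54 (SE 0.30, adjusted p = 0.00467) after changes of 4.62 (SE 0.36, adjusted p = 1.5e-07) in control and 3.21 (SE 0.35, adjusted p = 5.33e-06) in dKO nerve. Its partner Chaf1a had 65.7, 65.4 and 43.4 CPM in transected control and 19.4, 22.5 and 39.6 CPM in transected dKO nerve, with dKO replicate 4 close to control replicate 4, and a difference of -1.11 (SE 0.24, adjusted p = 0.00782). Ubxn6 shares 52.5% of the exon bases of Chaf1a from the opposite strand. Slbp did not overlap between the injured groups, at 27.7, 26.8 and 26.8 CPM in transected control and 19.4, 20.4 and 22.9 CPM in transected dKO nerve, and its difference of -0.37 (SE 0.17, adjusted p = 0.169) did not pass. None of the 3 called chromatin genes passed with the set term, where the differences were -0.77 for Uhrf1 (adjusted p = 0.179), -0.68 for Chaf1a (adjusted p = 0.366) and -1.28 for Chaf1b (adjusted p = 0.164).

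The G1/S control genes are E2f1, a transcription factor that drives many S phase genes, and the cyclins E (Ccne1 and Ccne2), which activate Cdk2. All 3 rose in both genotypes and all 3 were lower in dKO nerve at 5 days (median -1.32).

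E2f1 stood at 5.89, 3.02 and 4.15 CPM in uninjured control and 5.47, 4.60 and 5.43 CPM in uninjured dKO nerve, and at 148, 118 and 116 CPM in transected control and 47.3, 41.5 and 64.2 CPM in transected dKO nerve. The injured groups did not overlap, and the change was 4.86 (SE 0.24, adjusted p = 2.19e-09) in control and 3.30 (SE 0.22, adjusted p = 7.4e-08) in dKO nerve. The genotype difference at 5 days was -1.32 (SE 0.20, adjusted p = 0.000831), or -1.19 with the set term (adjusted p = 0.0444). Per kilobase E2f1 was second among the 39 genes in injured control nerve at 40.3 CPM per kb, after 1.38 CPM per kb in intact control nerve. Ccne1 stood at 1.72, 1.16 and 0.738 CPM in uninjured control, 1.34, 1.22 and 1.53 CPM in uninjured dKO, 29.3, 41.01 and 26.7 CPM in transected control and 10.1, 9.81 and 18.7 CPM in transected dKO nerve. Replicate 4 was the highest dKO and the lowest control library for Ccne1, and the groups still did not overlap. Its genotype difference was -1.34 (SE 0.28, adjusted p = 0.00702), with changes of 4.75 (SE 0.34, adjusted p = 5.19e-08) in control and 3.23 (SE 0.32, adjusted p = 2.17e-06) in dKO nerve. Ccne2 stood at 5.19, 7.32 and 5.20 CPM in uninjured control, 5.55, 5.15 and 5.77 CPM in uninjured dKO, 19.1, 18.9 and 16.6 CPM in transected control and 7.82, 10 and 11.1 CPM in transected dKO nerve. Its rise was smaller than that of Ccne1 in both genotypes, 1.63 (SE 0.20, adjusted p = 8.38e-06) in control and 0.81 (SE 0.19, adjusted p = 0.00367) in dKO nerve, with a genotype difference of -0.92 (SE 0.19, adjusted p = 0.00584). Both cyclin genes lost the call with the set term, at -1.06 for Ccne1 (adjusted p = 0.233) and -0.79 for Ccne2 (adjusted p = 0.171).

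In intact nerve the genotypes were compared gene by gene to see whether the levels differed before injury. None of the 39 genes passed (lowest adjusted p = 0.85), and the median difference was -0.08. Without adjustment 2 of the 39 genes had a p under 0.05, Mcm7 and Cdc6, beside 1299 of all models (5.80%), and DESeq2 called 0 members. Among all models 0.00447% passed as lower. Cdc6 had the widest difference, 1.10, at levels of 1.68, 0.248 and 0.632 CPM in uninjured control and 1.68, 1.71 and 2.17 CPM in uninjured dKO nerve. A difference that does not pass does not show that the levels are equal.

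At 5 days all 39 differences were below 0, from -1.80 (Rrm2) to -0.30 (Pola1). In 36 of the 39 genes the dKO libraries lay below all control libraries without overlap, beside 17.9% of all models, and the exceptions were Orc1, Gins4 and Dut. Against control replicate 4 alone, the control library of the same library set, all dKO libraries were lower for 37 of the 39 genes, beside 30.2% of all models, with Orc1 and Dut as exceptions. The median difference from that library was -0.75, with a range from -1.70 (Rrm2) to -0.05 (Orc1), and with 1 library there is no test. The fit with a term for the library set rests on the same control library and takes its SE from the spread over the whole fit. It is therefore not a separate check of these differences. With a term for the library set 8 genes passed as lower: Orc6, Mcm3, Mcm5, Cdc45, Gins2, Pcna, Rrm2 and E2f1. In that fit 1.65% of all models were lower, and the median difference of the members was -0.74 in place of -0.99. The 26 genes that lost the call had differences of -1.31 to -0.32 with adjusted p of 0.0525 to 0.646. Their differences lay nearer to 0 than without the term for 23 and had a wider SE for 25. Leaving out 1 library at a time kept 28 of the 34 calls in every fit. Those of Mcm4, Mcm10, Gins3, Gins4, Rfc4 and Rpa2 each failed in at least 1 of these fits.

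**Figure D5:**
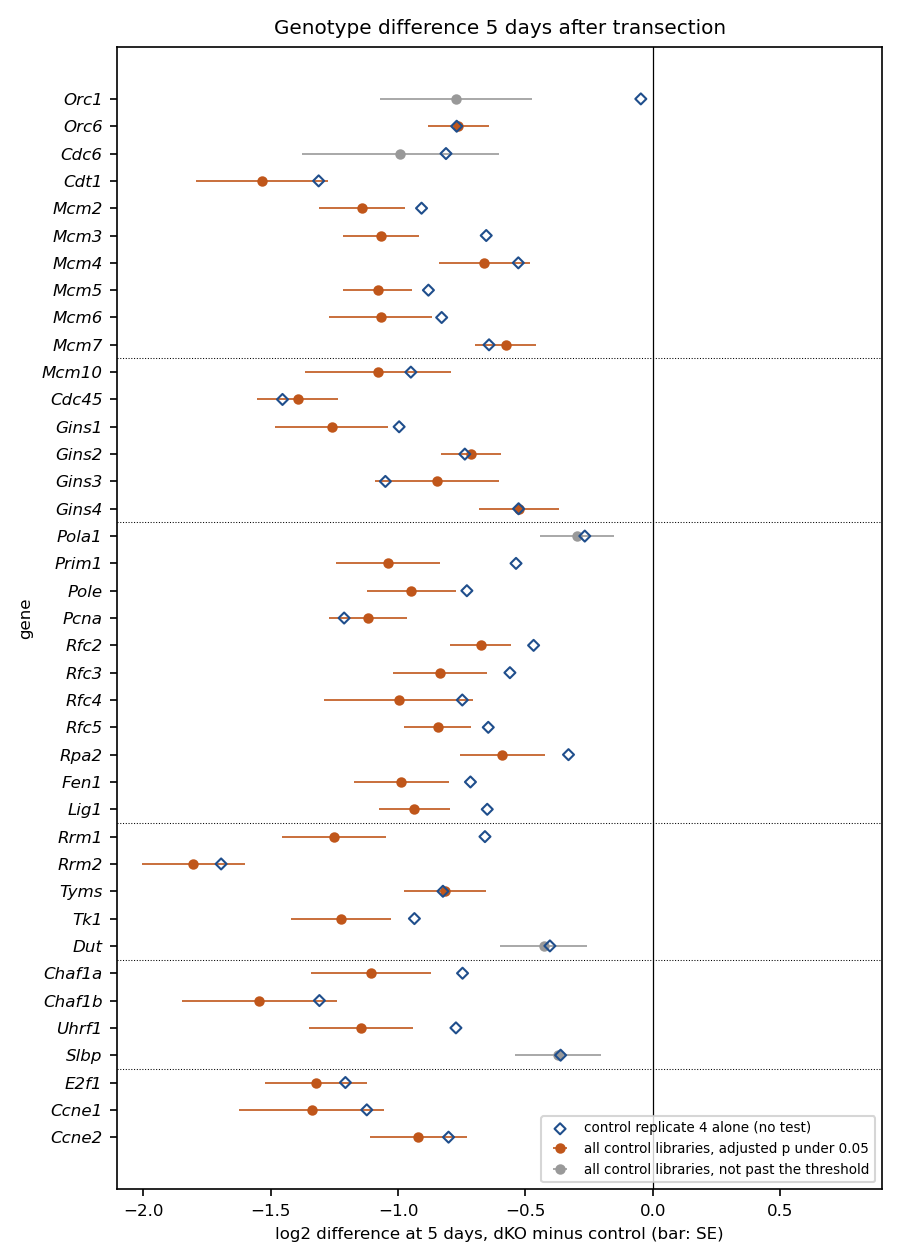
Genotype difference at 5 days, dKO minus control, on the log2 scale for each gene. Filled points use all control libraries with the SE as bars (orange, past the threshold; grey, not), and open diamonds compare the dKO mean with control replicate 4 alone; all points lie left of 0, and the diamond of Orc1 is nearest to it at -0.05.

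Whether the injury change itself differed between the genotypes was tested as the difference of both changes. Of the 39 genes 14 passed, all with a smaller change in dKO nerve, and 0 passed the other way, beside 2.17% and 0.737% of all models. The median difference was -0.87 over the members and -0.03 over all models. The 14 were Orc6, Cdt1, Mcm3, Mcm5, Mcm7 in licensing, Cdc45, Gins1 and Gins2 in the helicase, Pole, Pcna, Rfc2 and Fen1 at the fork, and Rrm2 and E2f1. Cdt1 had a difference of -1.86 (SE 0.39, adjusted p = 0.0165), Rrm2 of -1.69 (SE 0.36, adjusted p = 0.0184), Gins1 of -1.60 (SE 0.33, adjusted p = 0.015) and E2f1 of -1.56 (SE 0.30, adjusted p = 0.0121). In CPM, the dKO rise was a median of 39.2% of the control rise over the 37 genes that rose in control nerve. The range was from 2.74% (Rfc5) to 75.5% (Pola1). These shares are not adjusted for the library set, which coincides with injury in dKO nerve. With the library set term 2 of the 14 passed, Mcm7 at -1.01 (adjusted p = 0.0416) and Cdc45 at -1.43 (adjusted p = 0.03), beside 0.433% of all models. Without dKO replicate 3 at 5 days 7 of the 14 passed, and Orc6, Cdt1, Mcm3, Gins2, Pcna, Rfc2 and Fen1 did not. Without control replicate 4 at 5 days 20 genes passed, but in that fit genotype and library set coincide among the injured libraries and cannot be told apart. Mcm5, Mcm7, Cdc45, Gins1, Pole and E2f1 passed in every fit that left out 1 library.

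Other genes of DNA replication and its control numbered 72 in 5 lists, and their changes were not compared with those of the 39 genes by a test. In control nerve 50 rose and 7 fell (median 0.80), and in dKO nerve 32 rose and 10 fell (median 0.32). At 5 days 34 were lower and 0 higher in dKO nerve (median -0.55), and the difference of the injury changes passed for 5, all negative: Topbp1, Pold1, Dnmt1, Asf1b and E2f7. Of 12 other licensing and firing genes 5 were lower in dKO nerve, among them Dbf4, the activating subunit of the Cdc7 kinase, at -1.32 (adjusted p = 0.00085) and Topbp1, which helps recruit Cdc45, at -0.74 (adjusted p = 0.00239). Of 20 other fork genes 10 were lower, among them Pold1, the catalytic subunit of polymerase delta, at -0.89 (adjusted p = 0.00155) and Chtf18, of an alternative clamp loader, at -1.12 (adjusted p = 0.00267). Of 15 other nucleotide genes 6 were lower, among them Dck, the deoxycytidine kinase, at -1.45 (adjusted p = 0.000744). Of 8 other chromatin genes 5 were lower, among them Dnmt1, the maintenance methyltransferase, at -0.94 (adjusted p = 0.000286) and the histone chaperone Asf1b at -1.36 (adjusted p = 0.0023). Of 17 other G1/S genes 8 were lower, among them E2f6 at -0.83 (adjusted p = 0.00155) and E2f8 at -1.57 (adjusted p = 0.0023), both repressor members of the E2F family. The 7 genes that fell in control nerve were Donson, Rfc1, Mthfd1, Cad, Dhodh, Tfdp2 and Rbl2, and Mthfd1, of folate metabolism, had the lowest value at -1.29.

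Genes on a list for mitosis, which also holds Ccna2, Top2a and Mki67, changed more on the same scale. All 23 on the list rose in both genotypes (median 5.11 in control and 3.89 in dKO nerve), 22 were lower in dKO nerve at 5 days (median -1.42) and 8 passed in the difference of the injury changes (median -1.19). Their sum was 1484 to 2000 CPM in transected control and 608 to 726 CPM in transected dKO nerve. In intact nerve it was 46.4 to 52.9 CPM in control and 40.7 to 48.2 CPM in dKO libraries. The log2 changes of the mitosis genes thus start from low levels. The counts for this list and for the other replication genes above are without the library set term. The size of the mitosis and replication differences was not compared by a test.

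In whole nerve, fewer cells of a type and less RNA of a gene per cell cannot be told apart, and the cells that hold these transcripts are not known from these data. At 5 days the sum of 8 Schwann cell markers was 1892 to 2831 CPM in control and 3884 to 4684 CPM in dKO nerve: 4 of the 8 were higher in dKO nerve and 2 lower, Sox10 among the latter at -0.73 (SE 0.18, adjusted p = 0.0162). The sum of 10 macrophage markers was 1148 to 1934 CPM in control and 1130 to 1570 CPM in dKO nerve, with 1 marker higher and 1 lower. The sum of 8 fibroblast markers was 7790 to 12080 CPM in control and 13390 to 15720 CPM in dKO nerve, with 1 higher. The sum of 12 lymphocyte and killer cell markers was 72.3 to 287 CPM in control and 21.4 to 36.1 CPM in dKO nerve, with 1 higher and 1 lower. The lower one was Gzmb, which made up most of the sum in control nerve. Transected control libraries held 266, 93.7 and 64.8 CPM of Gzmb and transected dKO libraries 29.4, 9.20 and 20.2 CPM. The higher one was Cd8a, at 0, 0 and 0.082 CPM in transected control and 0.483, 0.472 and 0.809 CPM in transected dKO nerve. The sum of 5 red cell genes was 272 to 13530 CPM in control and 508 to 2018 CPM in dKO nerve, and no marker of these lists was at 0 in every library. The part of any of these cell types in the difference of the 39 genes was not tested.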

How the data were processed

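Per the labels' protocols, polyA RNA was made into libraries with the Ion Total RNA-Seq Kit v2, and per the submitters' processing notes the authors used DESeq2, R 4.2.1 and mm10. Which aligner, counting tool, strand setting and annotation were used is not given in the sources used here. Raw counts are whole numbers for each gene model, as deposited by the authors. The authors' normalized signal is those counts over 1 factor per library, since the ratio of both was constant to 0.0685%, and only the counts were tested.

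Counts were fitted with edgeR 4.0.16 in R 4.3.3 (TMM, filterByExpr with a minimum count of 10, robust quasi-likelihood, 1 mean per group over 12 libraries), with Benjamini-Hochberg adjustment over 22384 models and a threshold of 0.05, and checked on simulated data. Values are TMM-scaled CPM, with 3 libraries per group. The labels call replicates biological without naming animals. Library totals of 15430999 to 35845371 limit the precision of genes near 1 CPM. Exact permutation of 3 against 3 cannot go below p = 0.1 and was not used. Replicate numbers were not treated as pairs.

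Genes were named in full if they had 1 of the 2 smallest p-values of their role group (injury in control, genotype at 5 days), passed in intact nerve or in the difference of injury changes, or moved against the majority, and other replication genes by the 2 smallest p-values at 5 days of a list or a fall in control nerve. A gene that this rule names among the other nucleotide genes is not reported here. The members, lists, library set and alternatives were chosen with earlier results of these data known. Alternatives were DESeq2 1.42.0, its size factors, upper-quartile factors, no low-count filter, a replicate block, a library set term and leaving out each of the 12 libraries. Positions came from GENCODE M21, promoters from RefSeq (GRCm38.p6).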

Additional observations from a re-analysis of the deposited data

Results flagged for a closer look

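For 14 of the 39 genes the injury change differed between the genotypes by edgeR's test of the difference itself, on the log2 scale and in each case with a smaller change in dKO nerve. Among licensing genes the difference was -1.86 for Cdt1, which loads the helicase ring, -1.001 for Mcm5, -0.95 for Mcm7 and -0.87 for Mcm3, subunits of that ring, and -0.75 for Orc6, of the origin recognition complex. Among helicase genes it was -1.60 for Gins1, -1.38 for Cdc45 and -0.77 for Gins2. At the fork it was -1.34 for Fen1, -1.33 for Pole, -1.03 for Pcna and -0.79 for Rfc2. It was -1.69 for Rrm2, of ribonucleotide reductase, and -1.56 for E2f1, the transcription factor. All 3 dKO libraries at 5 days belong to the second library set, and with a term for it 2 of the 14 passed.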

How the results depend on the processing

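The 37 rises in control nerve passed under every alternative run. For the dKO injury change, 34 genes rose with DESeq2 and 31 with the library set term, which also left 0 genes lower in place of 1, and leaving out 1 library gave 1 to 2 lower. At 5 days the count of genes lower in dKO nerve, 34, was 35 with DESeq2, 33 with its size factors, 29 with upper-quartile factors, 34 with no low-count filter, 28 to 35 without 1 library and 8 with the library set term. For the difference of injury changes the count, 14, was 21 with DESeq2, 13 with its size factors, 10 with upper-quartile factors, 16 with no low-count filter, 7 to 20 without 1 library and 2 with the set term. The 20 came without control replicate 4 at 5 days, where genotype and library set coincide among injured libraries. Over all models DESeq2 called 2174 lower at 5 days in place of 2008, and 712 in the difference of changes in place of 485. Its size factors gave 1687 and 377, and the set term gave 370 and 97. With the set term the median difference of the 39 genes was -0.74 in place of -0.99 at 5 days and -0.69 in place of -0.87 for the injury changes. Of the 34 genes called at 5 days 27 had a difference nearer to 0 and 32 a wider SE, so both size and error moved. With the term the difference rests on control replicate 4 among the injured control libraries. Why the size moved was not tested. No gene called changed its direction under these settings.

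Upper-quartile factors shifted the median of all models by 0.11 in the genotype difference at 5 days and by 0.14 in the dKO injury change. Over all models the split at 5 days was then 1075 higher and 1345 lower in place of 699 and 2008, that of the dKO injury change 6246 and 4044 in place of 4930 and 5067, and that of the difference of changes 224 and 296 in place of 165 and 485. With the set term the last split was 75 and 97.

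With the replicate number as a block, 25 genes were lower at 5 days and 11 in the difference of injury changes, while the counts for injury stayed at 37 in control and at 34 higher and 1 lower in dKO nerve. Same-numbered intact and injured libraries had correlations of their deviations of -0.09 and -0.005 in control and 0.12, 0.10 and -0.01 in dKO nerve, so the numbers were not taken as pairs. The number-matched control pair 1 differed in sex. Depth limits genes such as Cdc6, with 0.25 to 1.68 CPM in control intact nerve.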

Other observations

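Per kilobase of exon, the order of the 39 genes in injured control nerve began with Pcna at 52.6 CPM per kb, E2f1 at 40.3, Rrm2 at 32.5 and Gins4 at 29.6. It ended with Pole at 2.45 CPM per kb, Orc1 at 2.34 and Mcm10 at 1.93. In injured dKO nerve Gins4 stood second at 20.6 CPM per kb behind Pcna at 24.2, followed by E2f1 at 16.2, and Rrm2 stood at 9.30. In intact control nerve Gins4 led at 26.7 CPM per kb, before Pcna at 12.3 and Rfc5 at 11.1, while Rrm2 stood at 0.35 and Uhrf1 at 0.33. These are levels, described without a test. Their order depends on the length of the union of all annotated exons, which is 11160 bases for Pole and 7692 for Mcm10.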
